A study of Mus musculus with 18 samples.

Results

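Angiotensin II treatment of cultured mouse neonatal ventricular cardiac fibroblasts was compared with the control condition of the same experiment, gene by gene. The comparison holds 6 of the 18 libraries of the series, 3 labelled Ang-II and 3 labelled si-NC, the negative control siRNA. Its genes were chosen by level alone, as those with a mean of at least 1 FPKM (fragments counted on a gene, divided by its length and by the depth of the library) over these 6 libraries, which left 11100 of 18264 listed genes. All libraries came from the fibroblasts of newborn mouse ventricles, and the labels give no strain, age in days, sex, dose of the hormone or length of treatment. They also do not say whether the Ang-II cells received the control siRNA. If they did not, Ang-II and si-NC differ by transfection as well as by the hormone, and the comparison cannot tell these apart. The hormone effect below means the difference between these labelled groups. Nor do the labels say whether the 3 libraries of a group came from separate cultures, so p-values measure only the spread between these libraries. The other groups of the knockdown arm, cells with siRNA against Foxm1 (si-Foxm1) and the same cells with the hormone (si-Foxm1+Ang-II), shared the estimate of that spread and gave another measurement of the hormone effect, in libraries that the main comparison did not use.

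Angiotensin II is the effector peptide of the renin-angiotensin system and raises blood pressure. In cardiac fibroblasts it acts mainly through the type 1 receptor, which couples to Gq proteins, phospholipase C, calcium and protein kinase C, and it is known as a driver of fibrosis, the build-up of collagen-rich matrix in pressure-loaded hearts. Much of its fibrotic action is known to pass through transforming growth factor beta, and myofibroblasts are the contractile, matrix-secreting state into which fibroblasts turn.

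The 6 libraries held 18167808 to 19012353 counted fragments each, recovered from the FPKM values, with 15422 to 15609 genes above 0. Ang-II replicate 3 stood apart from the other libraries of its group, by a mean chi-square per gene of 5.09 and 5.52 against 1.77 between replicates 1 and 2 and 2.07 to 2.12 among the si-NC libraries. Over the 118 genes that changed at least 2-fold with the hormone in si-Foxm1 cells, its median change from the si-NC mean was 0.86 on the log2 scale, against 1.27 in each of replicates 1 and 2, so it moved the same way by less. Some fibroblast markers were abundant in every library, such as the collagen gene Col1a1 at 718 FPKM or more, which was itself higher in Ang-II. Others were scarce, with Fap and Pi16 below 1 FPKM in all 6 libraries. Cardiomyocyte markers were abundant too. Actc1, cardiac actin, lay at 2669 to 2929 FPKM in si-NC and 1894 to 1986 FPKM in Ang-II, and the labels name no step that removed muscle cells. The genes of red blood cells Hba-a1 and Hbb-bs were listed at 0 in all 6 libraries, and the Schwann cell factor Sox10 and the mast cell protease Cpa3 were below 0.2 FPKM. Not every mast cell marker was that low. The 7 listed ones summed to a mean of 6.30 FPKM in si-NC and 6.21 FPKM in Ang-II, and of 2 tested 1 was called higher and 1 lower. Their sum was 26.5 FPKM in si-Foxm1 and 29.7 FPKM in si-Foxm1+Ang-II.

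Many genes differed between Ang-II and si-NC by a small amount. A limma fit on log2(FPKM + 1), with Benjamini-Hochberg adjustment over all 11100 genes, called 4953 genes at an adjusted p under 0.05, which is 44.6% of those tested. Of these, 1700 were higher in Ang-II (15.3% of tested genes) and 3253 were lower (29.3%). These shares are the background for the counts of every gene list below. The balance of directions followed the scaling between libraries: 2296 higher and 2552 lower calls (20.7% and 23%) came from median-of-ratios scaling, and 2662 and 2285 (24% and 20.6%) from quantile normalization. The median size of a called change was 0.23 on the log2 scale, and 44 genes were called at least 2-fold higher and 111 at least 2-fold lower. Fold changes below are differences of mean log2(FPKM + 1), Ang-II minus si-NC, with the fitted standard error after ±, 3 libraries against 3. An error after ± beside an FPKM value is an SD (n = 3). The added 1 FPKM understates the change of genes at low FPKM. The median over all tested genes was -0.035. All 3 Ang-II values lay above all 3 si-NC values in 2126 tested genes (19.2%) and below them in 3757 (33.8%).

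**Figure D1:**
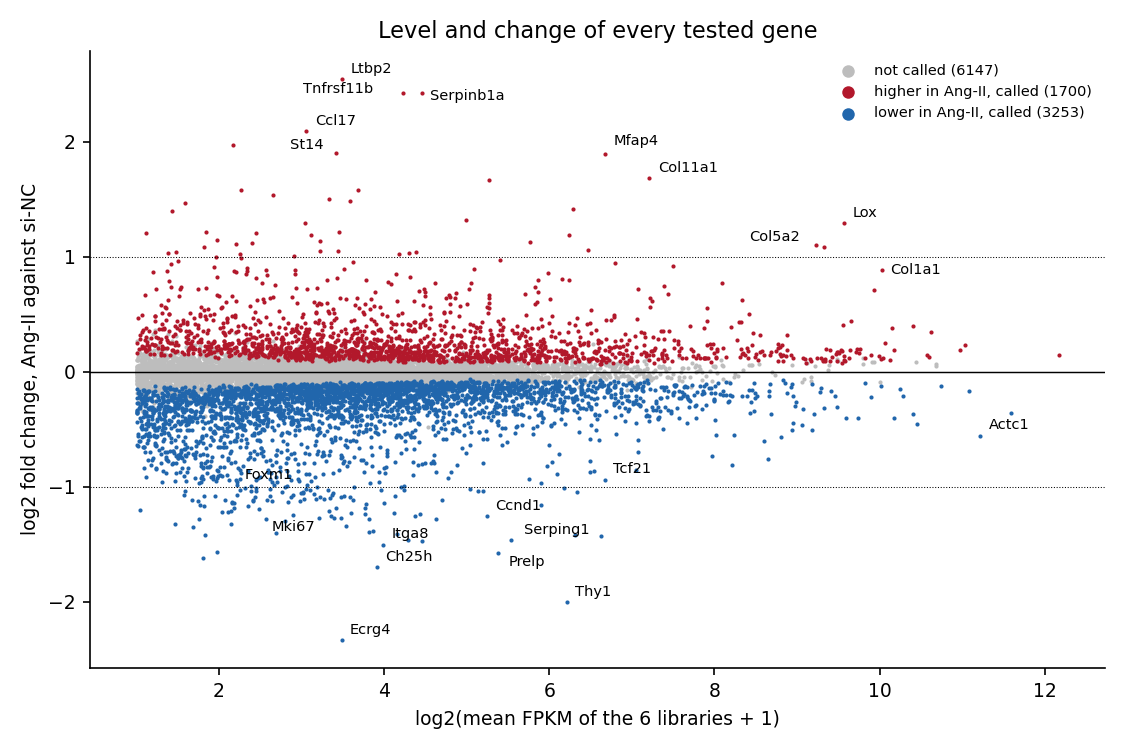
Each point is 1 of the 11100 tested genes, with its mean level over the 6 libraries on the x axis (log2 of FPKM + 1) and its log2 fold change on the y axis. Red points were called higher (1700 genes), blue points lower (3253) and grey points were not called, and the dotted lines mark 2-fold. Ltbp2, Tnfrsf11b and Serpinb1a lie at the top and Ecrg4 and Thy1 at the bottom, while Lox, Col5a2 and Col1a1 combine a high level with a rise near 2-fold.

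Genes of cell division fell together, and Foxm1 was among them. Foxm1 encodes a forkhead transcription factor that drives genes of the G2 phase and mitosis. Its level was 10.4, 9.64 and 10.3 FPKM in si-NC and 4.23, 4.03 and 5.65 FPKM in Ang-II. Every Ang-II library lay below every si-NC library, as in 33.8% of all tested genes. The log2 fold change was -0.99 ± 0.10, adjusted p = 2.59e-06. The two-sided exact permutation test of its FPKM gave p = 0.1, the smallest that 3 libraries against 3 allow.

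Of 49 tested mitosis and G2/M genes, 0 were called higher and 48 lower, where 29.3% of all tested genes were called lower, and their median log2 fold change was -1.05 against -0.035 for all genes. Mki67, a nuclear protein of cycling cells used as a proliferation marker, measured 14, 12.8 and 14.6 FPKM in si-NC and 5.32, 4.31 and 5.85 FPKM in Ang-II. Its groups were far apart, with a log2 fold change of -1.27 ± 0.08, adjusted p = 4.38e-08. The mitotic cyclin Ccnb1 went from 19 ± 0.224 to 7.23 ± 0.796 FPKM (-1.28 ± 0.06), and its kinase partner Cdk1 went from 10.5 ± 0.265 to 4.68 ± 0.837 FPKM (-1.03 ± 0.09). Ube2c, the ubiquitin-conjugating enzyme of the anaphase-promoting complex, had 35.4, 30.7 and 35.5 FPKM in si-NC and 12.1, 12.7 and 15.3 FPKM in Ang-II (-1.29 ± 0.08). The kinases Aurkb (-1.24 ± 0.08) and Plk1 (-1.10 ± 0.10), the decatenating enzyme Top2a (-1.23 ± 0.08) and the spindle proteins Nusap1 (-1.17 ± 0.06) and Racgap1 (-1.15 ± 0.05) fell by similar amounts. Pttg1, securin, was the member that was not called (-0.10 ± 0.07, adjusted p = 0.316), and was picked out after its value was seen. The summed FPKM of the mitosis list stood at 41.2% to 51.9% of the si-NC mean in the 3 Ang-II libraries, with replicate 3 the highest of them. In the si-Foxm1 libraries, without the hormone, it stood at 118% to 131%. In these bulk libraries fewer cells in division and less of these mRNAs per dividing cell cannot be told apart.

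Promoters of mitosis genes carry a known element, the cell cycle genes homology region (CHR), to which the DREAM and MuvB-FOXM1 complexes bind. In RefSeq promoters of 300 bases around the start of the gene (build GRCm38.p6, 1 per symbol), the letters TTTGAA or TTCGAA on either strand were found in 34 of 42 matched mitosis genes (81.0%), in 13.6% of the 8919 matched promoters of tested genes and in 19.4% of all 27025 promoters. CCAAT, on either strand, was present in 33 of the 42 (78.6%) and in 38.9% of the promoters of tested genes. The windows below show where these letters stand, in capitals, in 4 genes that fell by more than 2-fold; a match of letters is a description and not a measured binding site.
Cdk1, chr10:69352966-69352995, minus strand: ctgattggctccTTTGAAcgtctacgtgca
Mki67, chr7:135716478-135716507, minus strand: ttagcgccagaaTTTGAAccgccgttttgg
Ccnb2, chr9:70421704-70421733, minus strand: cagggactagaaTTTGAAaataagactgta
Ube2c, chr2:164769888-164769917, plus strand: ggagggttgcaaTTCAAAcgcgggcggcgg
The TTCAAA of Ube2c is TTTGAA read on the other strand. Ccnb2, a second mitotic cyclin shown after its value was seen, had a log2 fold change of -1.12 ± 0.07, adjusted p = 5.17e-08.

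All 46 tested genes of DNA replication and S phase were called lower, with a median of -0.70. Uhrf1, which keeps DNA methylation at the replication fork, had 14.9, 14.1 and 15 FPKM in si-NC and 5.03, 4.66 and 6.99 FPKM in Ang-II and fell by 1.27 on the log2 scale (SE 0.09, adjusted p = 1.64e-07). The replicative helicase subunits Mcm5 (-1.09 ± 0.09), Mcm3 (-0.96 ± 0.07) and Mcm2 (-0.73 ± 0.06) fell with the histone chaperone Chaf1b (-1.07 ± 0.08) and the ribonucleotide reductase subunit Rrm2 (-1.01 ± 0.07). The sliding clamp Pcna, the most abundant of these genes named here, went from 76.8 ± 2.78 to 49.4 ± 7.52 FPKM (-0.64 ± 0.07). Cyclins E1 and E2, which open S phase, fell too (Ccne1 -0.68 ± 0.09, Ccne2 -0.69 ± 0.07), and so did the transcription factor E2f1 (-0.42 ± 0.05). The summed FPKM of the S phase list was 54.8% to 67.2% of the si-NC mean in Ang-II and 96.9% to 103% among the si-NC libraries.

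E2F proteins bind a GC-rich element in S phase promoters. One of the letters TTTGGCGC, TTTCGCGC, TTCCCGCC or TTTCCCGC, on either strand, stood in 18 of 37 matched S phase promoters (48.6%), against 6.97% of those of tested genes and 3.57% of all promoters. These letters overlap when read on opposite strands, as TTTCGCGC and TTTGGCGC do in Mcm5, and each promoter was counted once. They stood in 3 of the 42 mitosis promoters (7.14%). The CHR letters were in 7 of the 37 (18.9%). The S phase genes below, which fell, show the element in capitals:
Mcm5, chr8:75109345-75109374, plus strand: gcgccaagaacTTTCGCGCcaaaacgtcca
Cdc6, chr11:98908002-98908031, plus strand: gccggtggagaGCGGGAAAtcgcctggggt
Uhrf1, chr17:56303278-56303307, plus strand: tgctttctcgcTTCCCGCCacagcgccagc
The GCGGGAAA of Cdc6, a loading factor of the helicase (-0.79 ± 0.12), is TTTCCCGC on the other strand.

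Repair genes that are expressed in cycling cells followed. Of 20 homologous recombination and Fanconi genes tested, 15 were called lower and 0 higher (median -0.49), among them the checkpoint proteins Clspn (-0.83 ± 0.07) and Chek1 (-0.58 ± 0.06). Among 28 cell cycle inhibitors, D cyclins and DREAM subunits, 17 were lower and 1 higher, against 15 lower and 3 higher with median-of-ratios scaling and 16 and 3 with quantile normalization. Ccnd1, cyclin D1, which links growth factor signals to the cycle, measured 51.7, 52.5 and 52.9 FPKM in si-NC and 20.1, 19.2 and 25.2 FPKM in Ang-II (-1.26 ± 0.07, adjusted p = 1.66e-08). The si-NC libraries lay close together and replicate 3 was the highest of the treated ones, still far below them. The pocket protein Rbl1 (-0.66 ± 0.06) and Mybl2 (-0.84 ± 0.08), a MuvB partner, fell, and the inhibitor Cdkn2c, p18, fell by 0.94 (SE 0.08). The 1 member that rose was Cdkn2b, the p15 inhibitor known as a TGF-beta target, with 13.4, 13.1 and 12.8 FPKM in si-NC and 22.3, 22.2 and 17.6 FPKM in Ang-II (0.62 ± 0.07, adjusted p = 6.78e-06). The p21 gene Cdkn1a was slightly lower (-0.21 ± 0.06, adjusted p = 0.0144), a call that was lost without Ang-II replicate 1 or without si-NC replicate 2, and p27, Cdkn1b, was not called (0.03 ± 0.04, adjusted p = 0.483).

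**Figure D2:**
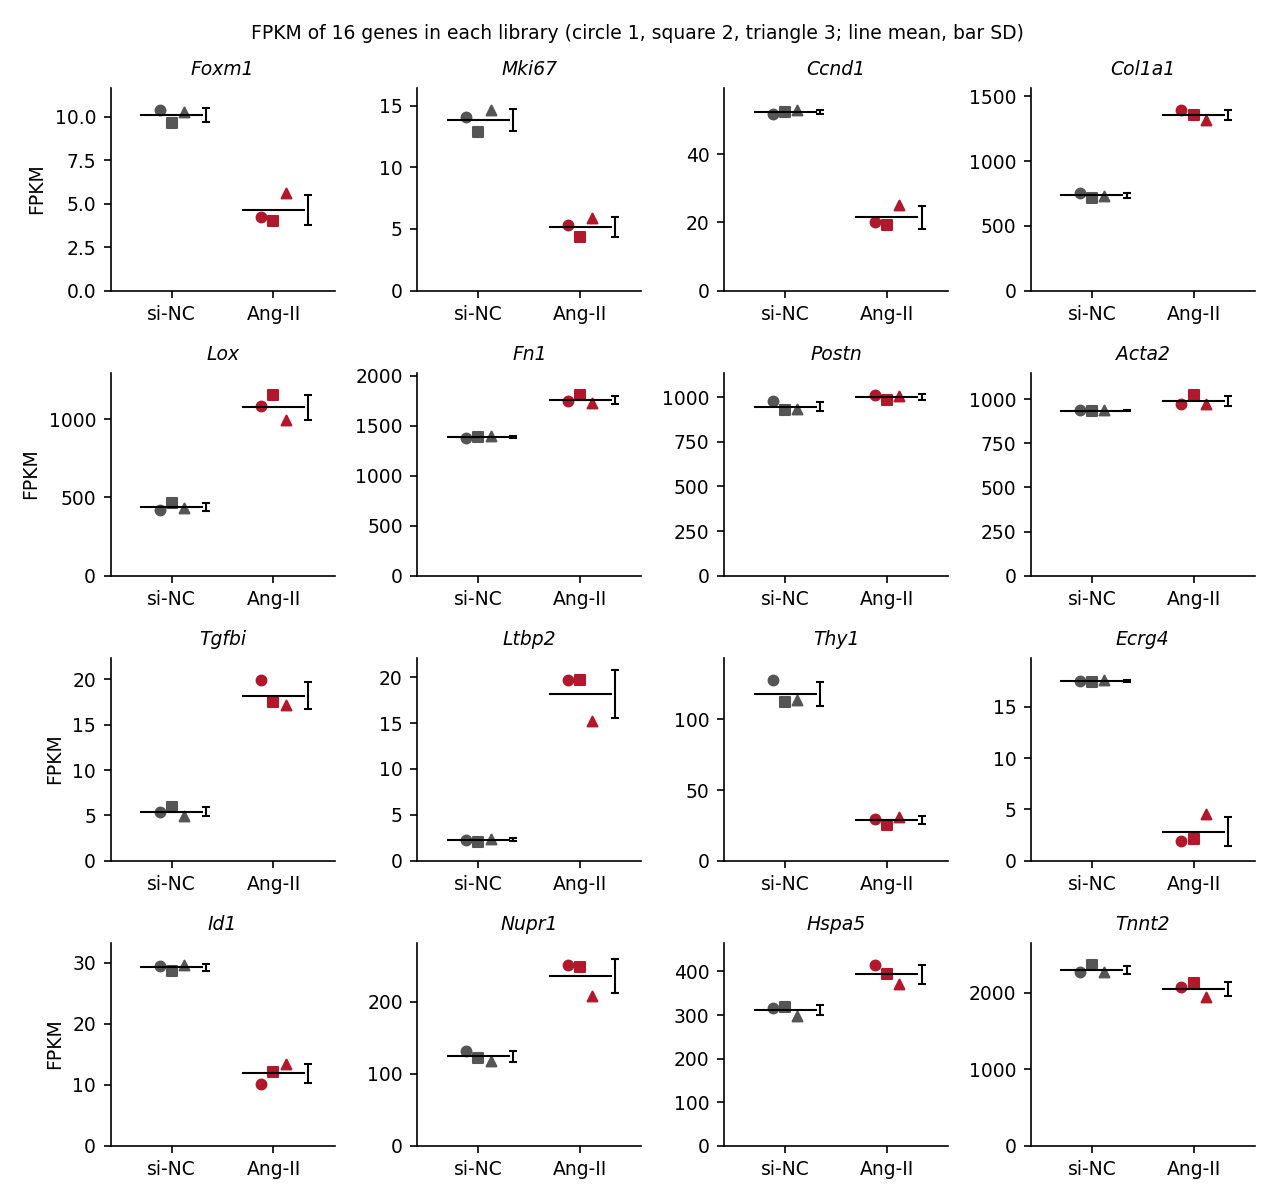
FPKM of 16 genes in each library, si-NC in grey and Ang-II in red, on linear axes that start at 0, with circles, squares and triangles for replicates 1, 2 and 3, a line for the mean and a bar for the SD (n = 3). The 2 groups are separate for Foxm1, Mki67, Ccnd1, Col1a1, Lox, Fn1, Tgfbi, Ltbp2, Thy1, Ecrg4, Id1, Nupr1, Hspa5 and Tnnt2, Postn and Acta2 are also separate but by little, and among the Ang-II libraries the triangle lies nearest to the si-NC mean in every panel other than Postn and Tnnt2, almost level with the circle for Acta2.

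The genes of interstitial collagen rose from an already high level, though not all of them. Of 13 fibrillar and fibril-associated collagen genes, 8 were called higher (61.5%, against 15.3% of all tested genes) and 4 lower (30.8%, near the 29.3% of all tested genes). Col1a1 and Col1a2 encode the chains of type I collagen, the main fibre of scar. Col1a1 measured 756, 718 and 731 FPKM in si-NC and 1394, 1358 and 1314 FPKM in Ang-II (0.88 ± 0.03, adjusted p = 4.2e-10). Only Lox gained more FPKM among all called genes. Col1a2 went from 743 ± 22.5 to 1214 ± 18.8 FPKM (0.71 ± 0.03). Type V and XI collagens, which start fibrils and set their width, rose more in proportion: Col5a2 had 381, 384 and 378 FPKM in si-NC and 807, 848 and 795 FPKM in Ang-II (1.10 ± 0.03, adjusted p = 3.93e-11) and Col11a1 had 70.8, 68.1 and 69.3 FPKM in si-NC and 229, 232 and 215 FPKM in Ang-II (1.68 ± 0.04, adjusted p = 1.05e-11). For both genes the 3 treated libraries lay close together, far above the controls. The fibril-associated Col12a1 rose by 1.42 ± 0.05. Collagens III, VI and XIV went the other way. Col3a1, which makes the finer fibres of the young heart, went from 614 ± 13.1 to 451 ± 93.7 FPKM (-0.46 ± 0.10, adjusted p = 0.00218), Col14a1 fell by 0.24 (SE 0.05), and the type VI chain genes Col6a1 and Col6a2, added here after their values were seen, fell by 0.54 and 0.33. The list's summed FPKM was 153% to 156% of the si-NC mean in the Ang-II libraries, so their sum in replicate 3 was like that of replicates 1 and 2.

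Enzymes that modify, fold and crosslink collagen rose as well, 19 of 26 tested genes (73.1%), with 2 lower (7.7%) and a median of 0.30. Lox, the lysyl oxidase that crosslinks collagen and elastin outside the cell, measured 421, 465 and 433 FPKM in si-NC and 1084, 1154 and 995 FPKM in Ang-II (1.29 ± 0.06, adjusted p = 2.47e-09). Its relatives Loxl2 (0.68 ± 0.05) and Loxl4 (0.64 ± 0.04) rose, while Loxl1, known for elastin, was at 153 ± 4.56 FPKM in si-NC and 145 ± 7.56 FPKM in Ang-II (-0.07 ± 0.04, adjusted p = 0.194; -0.11 and called without Ang-II replicate 1). Lysyl hydroxylase Plod2, which directs the stable type of crosslink, went from 53.4 ± 1.14 to 75.2 ± 3.34 FPKM (0.48 ± 0.04), prolyl 3-hydroxylase P3h1 rose by 0.60 ± 0.03, and the collagen chaperones Serpinh1, known as HSP47 (976 ± 14.5 FPKM in si-NC and 1159 ± 7.63 FPKM in Ang-II, 0.25 ± 0.03), and Fkbp10 (0.47 ± 0.04) rose less steeply from high levels. The galactosyltransferase Colgalt1 (0.35 ± 0.03) and the prolyl hydroxylase subunits P4hb (0.32 ± 0.03) and P4ha3 (0.32 ± 0.07) were higher. Tll1, a protease of the BMP1 family that removes the C-propeptide of procollagen and was among the 15 highest genes of the comparison, had 2.38, 2.35 and 1.96 FPKM in si-NC and 9.08, 8.77 and 7.37 FPKM in Ang-II (1.54 ± 0.07, adjusted p = 2.26e-09).

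Elastic fibre genes split, with 7 of 17 higher (41.2%) and 6 lower (35.3%). Ltbp2, a fibrillin-binding protein of microfibrils, had the highest log2 fold change of the tested genes, which leaves out genes with a mean below 1 FPKM. It had 2.3, 2.09 and 2.39 FPKM in si-NC and 19.7, 19.7 and 15.2 FPKM in Ang-II, or 2.55 ± 0.08, adjusted p = 9.41e-11. Mfap4, a microfibril-associated protein, measured 40.4, 42.7 and 43.5 FPKM in si-NC and 165, 162 and 153 FPKM in Ang-II (1.90 ± 0.05, adjusted p = 2.43e-11). The fibulin Fbln5, needed for elastic fibre assembly, rose by 0.70 ± 0.04, but elastin itself fell, Eln going from 462 ± 29.8 to 357 ± 9.35 FPKM (-0.37 ± 0.05), and Efemp1, fibulin-3, had 31.8, 31 and 30.8 FPKM in si-NC and 9.77, 10.5 and 11.5 FPKM in Ang-II (-1.48 ± 0.06, adjusted p = 2.34e-09). None of these groups overlapped, where 19.2% of all tested genes lay wholly higher and 33.8% wholly lower.

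Among 18 matricellular and adhesive proteins 11 rose (61.1%) and 5 fell (27.8%), with a median of 0.30. Fibronectin, Fn1, which guides collagen assembly, went from 1388 ± 11.2 to 1762 ± 41.1 FPKM (0.34 ± 0.03), and Sparc, a collagen-binding protein, from 1933 ± 33.8 to 2270.0 ± 43.4 FPKM (0.23 ± 0.03). Of the CCN family, Ccn2, the connective tissue growth factor, measured 1168, 1175 and 1148 FPKM in si-NC and 1675, 1711 and 1254 FPKM in Ang-II (0.40 ± 0.09, adjusted p = 0.00225), Ccn4 (0.95 ± 0.06) and Ccn5 (0.74 ± 0.06) rose more, and Ccn3 fell by 1.19 (SE 0.12). Ccn2 in Ang-II replicate 3 lay between the controls and the other 2 treated libraries. Cthrc1, a secreted protein of activated fibroblasts, rose from 44.9 ± 1.67 to 104 ± 6.24 FPKM (1.19 ± 0.05, adjusted p = 1.24e-09). Periostin, Postn, a common marker of activated cardiac fibroblasts, was not called: 978, 928 and 935 FPKM in si-NC and 1012, 983 and 1008 FPKM in Ang-II (0.08 ± 0.03, adjusted p = 0.0512), although some alternatives, among them median-of-ratios scaling, called it higher. Tenascin C, Tnc, was lower (-0.54 ± 0.03).

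Of 23 proteoglycan and hyaluronan genes 7 rose (30.4%) and 9 fell (39.1%). Prelp, a leucine-rich repeat protein that anchors collagen to basement membranes, had 58.8, 60.6 and 63.9 FPKM in si-NC and 15.8, 17.5 and 27.7 FPKM in Ang-II (-1.58 ± 0.14, adjusted p = 8.06e-07), and Cemip, which degrades hyaluronan, had 114, 115 and 112 FPKM in si-NC and 32.5, 36.8 and 60.7 FPKM in Ang-II (-1.42 ± 0.15, adjusted p = 5.6e-06). For both, replicate 3 was the highest of the treated libraries and still below every control. Decorin, Dcn, which restrains fibril growth and binds TGF-beta, went from 131 ± 1.48 to 90.4 ± 16 FPKM (-0.55 ± 0.08), and the large proteoglycans Vcan (0.77 ± 0.04) and Acan (0.91 ± 0.08) rose. Lumican, Lum, had 24.9, 25.2 and 25.7 FPKM in si-NC and 14.4, 13.3 and 29.2 FPKM in Ang-II (-0.48 ± 0.19, adjusted p = 0.0579), replicate 3 lying above every control, and without that library its change was -0.82 and was called. Basement membrane genes gave 5 higher and 9 lower of 19. The laminin chain Lama2, of muscle basement membrane, rose from 44 ± 1.69 to 80.7 ± 4.32 FPKM (0.86 ± 0.05), the linkers Nid1 (-0.40 ± 0.03) and Nid2 (-0.81 ± 0.05) fell, and the abundant type IV collagen Col4a1 hardly moved, from 939 ± 5.7 to 878 ± 3.29 FPKM (-0.10 ± 0.02), and was not called with median-of-ratios scaling.

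Matrix metalloproteinases and their inhibitors gave 7 higher (36.8%) and 8 lower (42.1%) of 19. Mmp3, stromelysin-1, measured 4.93, 4.18 and 5.4 FPKM in si-NC and 0.706, 0.609 and 1.74 FPKM in Ang-II (-1.57 ± 0.17, adjusted p = 4.96e-06), and the membrane-bound Mmp15 fell by 0.88 (SE 0.06). The main gelatinase of these cells, Mmp2, went from 122 ± 0.765 to 108 ± 3.95 FPKM (-0.18 ± 0.03). Of the inhibitors, Timp1 went from 54 ± 2.21 to 94.8 ± 2.82 FPKM (0.80 ± 0.04) and Timp3 rose by 0.40 ± 0.04, while Timp2, at a higher level, went from 312 ± 6.55 to 188 ± 13.3 FPKM (-0.73 ± 0.04). Plat, tissue plasminogen activator, was among the 15 lowest genes, with 26.1, 24.9 and 23 FPKM in si-NC and 7.67, 7.02 and 11.8 FPKM in Ang-II (-1.42 ± 0.13, adjusted p = 1.54e-06).

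Contractile genes did not rise as a group: 3 of 26 (11.5%) were called higher and 13 lower, against 15.3% and 29.3% of all tested genes. With median-of-ratios scaling 4 were higher and 11 lower. In si-Foxm1 cells the hormone gave 9 higher and 8 lower calls in this list, where 12.9% and 34.5% of all tested genes were called. Acta2, the smooth muscle actin by which myofibroblasts are usually recognised, had 939, 930.5 and 937 FPKM in si-NC and 974, 1023 and 973 FPKM in Ang-II (0.08 ± 0.06, adjusted p = 0.326). Its groups did not overlap, as in the 19.2% of all tested genes that lay wholly higher, but the test was not passed. Tagln was at 551 ± 13.5 FPKM in si-NC and 518 ± 19.2 FPKM in Ang-II (-0.09 ± 0.06, adjusted p = 0.228). Cnn1, calponin, rose from a low level, from 6.39 ± 0.796 to 9.69 ± 2.18 FPKM (0.52 ± 0.13, adjusted p = 0.00483). The light chain Myl9 (-0.26 ± 0.04), the focal adhesion proteins Vcl (-0.29 ± 0.03) and Tln1 (-0.24 ± 0.03), and Srf, the transcription factor that activates this programme (-0.28 ± 0.04), fell. Integrins split 7 higher and 5 lower of 14 (8 and 3 with quantile normalization). Itga11, a collagen receptor of myofibroblasts, rose from 4.29 ± 0.554 to 11.1 ± 1.03 FPKM (1.19 ± 0.08, adjusted p = 1.19e-07), and Itga8, the nephronectin receptor chain, fell, with 23, 21.3 and 23 FPKM in si-NC and 6.05, 6.85 and 9.14 FPKM in Ang-II (-1.51 ± 0.10, adjusted p = 1e-07).

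**Figure D3:**
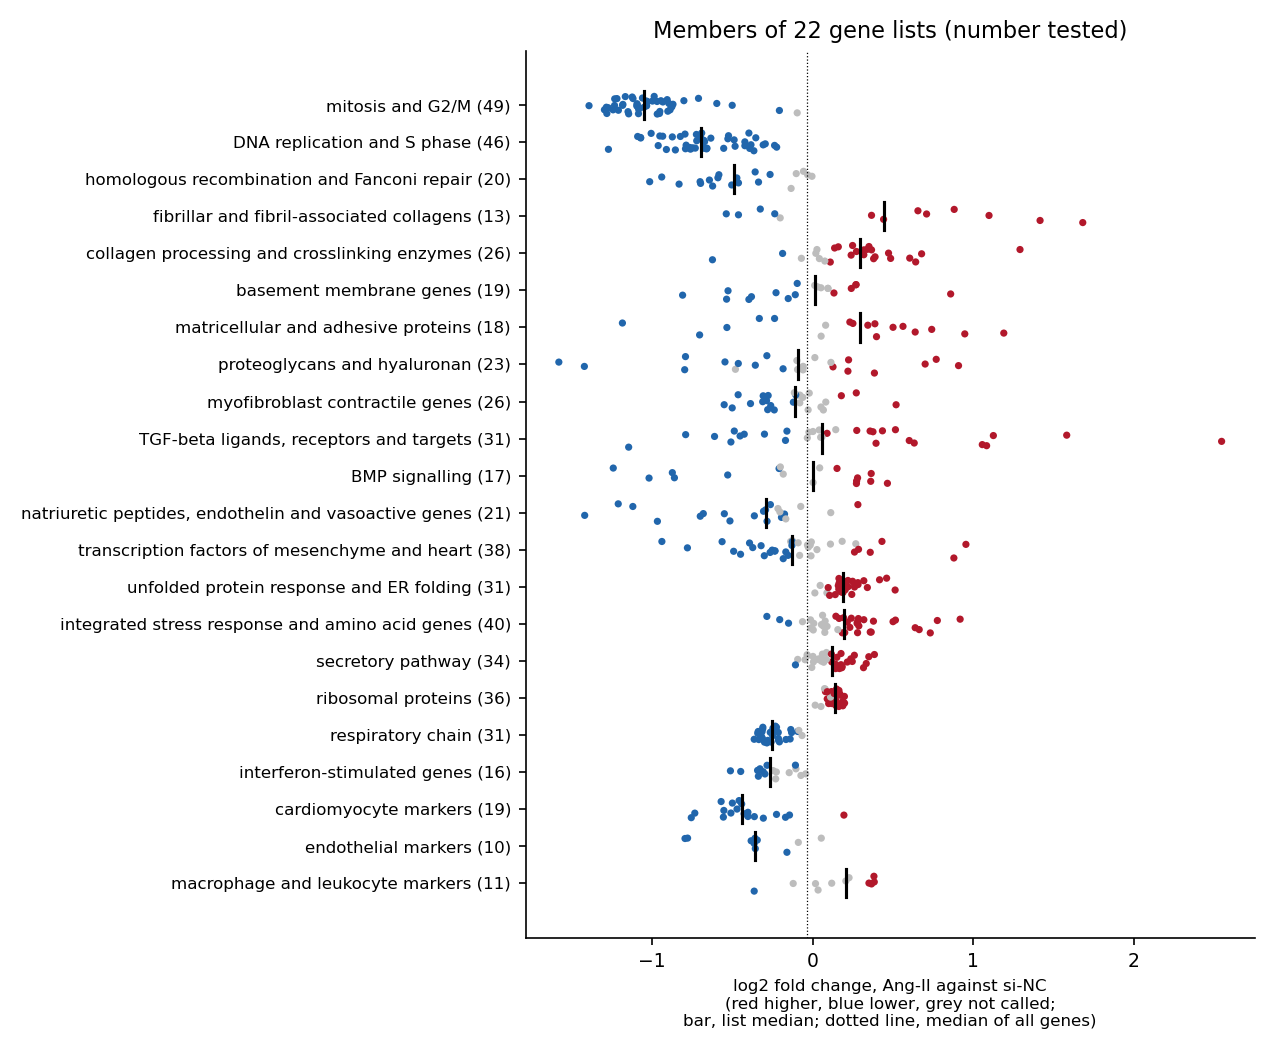
Log2 fold change (x axis) of every tested member of 22 gene lists, with the number tested in brackets, red for called higher, blue for called lower and grey for not called, a black bar for the median of the list and a dotted line for the median of all genes (-0.035). Mitosis and S phase genes lie to the left, collagen enzymes, ER folding and ribosomal protein genes to the right, and TGF-beta, proteoglycan and basement membrane genes on both sides.

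Genes of the TGF-beta pathway moved both ways, with lower receptors. Of 31 TGF-beta genes 14 were called higher (45.2%) and 10 lower (32.3%, near the 29.3% of all tested genes). Among the ligands, Tgfb1 was at 24.8 ± 1.65 FPKM in si-NC and 24.8 ± 1.45 FPKM in Ang-II (0.00 ± 0.06, adjusted p = 0.994), and Tgfb2 (-0.45 ± 0.06) and Tgfb3 (-0.49 ± 0.05) fell. The signalling receptors Tgfbr1 (-0.17 ± 0.05) and Tgfbr2 (-0.30 ± 0.07) were lower, the first of them not with quantile normalization. The latent TGF-beta binding protein Ltbp3 rose by 0.60 ± 0.03. Of the targets, Tgfbi, a secreted adhesion protein, measured 5.35, 5.93 and 4.97 FPKM in si-NC and 19.9, 17.5 and 17.2 FPKM in Ang-II (1.58 ± 0.07, adjusted p = 2.12e-09). Replicate 3 was the lowest of the treated libraries for Tgfbi, and the summed FPKM of the list stood at 126% of the si-NC mean there and at 159% and 163% in replicates 2 and 1. Such a sum follows the most abundant members, and the median log2 fold change of the list was only 0.06. Of the inhibitory SMADs, Smad6 fell (-0.61 ± 0.04) and Smad7 was at 15.8 ± 0.378 FPKM in si-NC and 17.6 ± 2.1 FPKM in Ang-II (0.14 ± 0.07, adjusted p = 0.0916), a change that was 0.23 and called without Ang-II replicate 3.

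BMP signalling acts against TGF-beta in many tissues, and its direct targets, the Id genes, were all lower or not called. Id1, an inhibitor of basic helix-loop-helix factors, had 29.5, 28.6 and 29.6 FPKM in si-NC and 10.1, 12 and 13.3 FPKM in Ang-II (-1.24 ± 0.07, adjusted p = 1.64e-08). Id2 (-1.02 ± 0.08) and Id3 (-0.86 ± 0.08) fell with it, and the ligand Bmp4 went from 31 ± 0.623 to 16.5 ± 0.99 FPKM (-0.88 ± 0.05). Over the list 7 of 17 genes were higher (41.2%) and 6 lower (35.3%). The higher ones included the ligand Gdf6, from 66.7 ± 1.8 to 92.5 ± 5.32 FPKM (0.47 ± 0.05), and Bmp1, the procollagen C-proteinase (0.36 ± 0.03).

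The receptor for the hormone was scarce. Agtr1a, the type 1a receptor, had 0.577, 0.689 and 0.801 FPKM in si-NC and 0.737, 0.562 and 0.654 FPKM in Ang-II, which are 25 to 37 counted fragments a library. The groups overlapped (two-sided exact permutation test, p = 0.7), and Agtr1a lay under the level of 1 FPKM for the main test. With genes down to 0.1 FPKM included its log2 fold change was -0.03 ± 0.07 (adjusted p = 0.759). Agtr1b and Agtr2 had at most 4 fragments in any of the 6 libraries, and a count of 0 allows up to 3. In the rest of the angiotensin and G protein list 5 of 29 genes rose and 13 fell (6 and 9 with quantile normalization). The precursor gene Agt went from 1.77 ± 0.27 to 0.87 ± 0.111 FPKM (-0.56 ± 0.09) and the converting enzyme gene Ace from 10.6 ± 0.616 to 8.35 ± 0.644 FPKM (-0.32 ± 0.05). Rgs4, a GTPase activator that switches off Gq, measured 2.01, 1.57 and 2.07 FPKM in si-NC and 6.43, 5.75 and 3.76 FPKM in Ang-II (1.11 ± 0.13, adjusted p = 1.4e-05), Rgs5 of the same family rose by 0.66 ± 0.07, and the receptor kinase Grk5 went from 21 ± 0.889 to 28.2 ± 0.947 FPKM (0.41 ± 0.04).

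Signalling genes downstream of such receptors moved both ways, and the counts of several lists lay near those of all tested genes, of which 15.3% were higher and 29.3% lower. Of 20 immediate early genes 4 were higher and 9 lower (6 and 7 with quantile normalization): Egr1 fell by 0.38 (SE 0.08), Fos was at 1.72 ± 0.0727 FPKM in si-NC and 1.7 ± 0.223 FPKM in Ang-II (-0.01 ± 0.07, adjusted p = 0.912) and Junb rose by 0.41 ± 0.08. None of 16 ERK feedback inhibitors rose and 7 fell, with the phosphatase Dusp6 at -0.69 ± 0.04. In the calcineurin list 3 rose and 5 fell of 20 (15% and 25%, close to the shares of all genes; 4 and 4 with median-of-ratios scaling, 3 and 3 with quantile normalization), and Rcan1, whose transcription reports NFAT activity, was at 34.3 ± 2.0 FPKM in si-NC and 36.9 ± 2.81 FPKM in Ang-II (0.10 ± 0.06, adjusted p = 0.201), a change that was 0.16 and called without Ang-II replicate 3 among the alternatives run. Of 19 genes of the p38 cascade 8 fell and 1 rose, but only 4 fell with median-of-ratios scaling and 3 with quantile normalization, where 23% and 20.6% of all tested genes were lower. Of the 25 Hippo-YAP genes 8 rose and 6 fell (11 and 4 with either scaling), where Ankrd1, a YAP target and cardiac stress gene, went from 1531 ± 53.2 to 1187 ± 37.9 FPKM (-0.37 ± 0.03).

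Genes of vasoactive peptides and their receptors fell. Of 21 tested, 15 were lower and 1 higher (median -0.29). Nppa and Nppb encode the natriuretic peptides, which oppose angiotensin and come mainly from muscle cells. Nppb went from 166 ± 17.8 to 102 ± 11.1 FPKM (-0.70 ± 0.09, adjusted p = 1.81e-05) and Nppa from 3473 ± 158 to 2701 ± 203 FPKM (-0.36 ± 0.05), although for Nppa quantile normalization gave 0.00 and no call. The clearance receptor Npr3 had 5.16, 5.31 and 5.01 FPKM in si-NC and 1.67, 1.47 and 1.86 FPKM in Ang-II (-1.21 ± 0.06, adjusted p = 4.63e-09), the endothelin B receptor Ednrb 3.82, 4.55 and 4.1 FPKM in si-NC and 0.623, 0.903 and 1.3 FPKM in Ang-II (-1.42 ± 0.10, adjusted p = 1.01e-07), and the prostaglandin E receptor Ptger4 fell by 1.12 (SE 0.12). Adrenomedullin, Adm, a vasodilator peptide, went from 77.4 ± 2.2 to 39.8 ± 9.61 FPKM (-0.97 ± 0.12), and Gucy1a1, a subunit of the nitric oxide receptor, fell by 0.68 (SE 0.15). Edn1, endothelin 1 itself, went from 18.9 ± 0.152 to 15.6 ± 0.543 FPKM (-0.26 ± 0.05).

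Cytokine genes gave 8 higher and 8 lower of 23 (34.8% each). Il6, interleukin 6, measured 3.13, 4.38 and 3.66 FPKM in si-NC and 11.6, 12.9 and 7.67 FPKM in Ang-II (1.29 ± 0.14, adjusted p = 5.76e-06), Ptgs2, the inducible cyclooxygenase, 1.31, 1.44 and 1.51 FPKM in si-NC and 5.38, 5.12 and 2.91 FPKM in Ang-II (1.15 ± 0.14, adjusted p = 1.85e-05), and the chemokine Cx3cl1 5.22, 5.05 and 5.53 FPKM in si-NC and 17.5, 19.1 and 13.5 FPKM in Ang-II (1.49 ± 0.09, adjusted p = 4.64e-08). All 3 were higher in every treated library than in any control, as were 19.2% of all tested genes. Among the treated libraries all 3 were lowest in replicate 3. Cxcl12 rose (0.89 ± 0.05) and the monocyte chemokines Ccl2 (-0.79 ± 0.12) and Ccl7 (-0.78 ± 0.13) fell. None of 16 interferon-stimulated genes rose and 9 fell (56.2%, where 29.3% of all tested genes were lower), but with quantile normalization 5 fell, where 20.6% of all tested genes were lower. Complement genes gave 4 higher and 5 lower of 13 (4 and 3 with quantile normalization): the C1 inhibitor Serping1 had 70.7, 62 and 68.3 FPKM in si-NC and 21, 19.5 and 31.9 FPKM in Ang-II (-1.47 ± 0.13, adjusted p = 1.17e-06), and clusterin, Clu, rose by 0.77 ± 0.04.

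Growth factor genes split 8 higher and 11 lower of 25 (11 and 9 with quantile normalization). The receptor Pdgfra, a fibroblast marker, had 8.18, 6.88 and 7.23 FPKM in si-NC and 3.15, 2.83 and 4.6 FPKM in Ang-II (-0.92 ± 0.11, adjusted p = 1.48e-05), while Pdgfrb went from 90.1 ± 4.22 to 123 ± 4.73 FPKM (0.45 ± 0.04). The ligand Vegfd went from 28 ± 1.19 to 11.4 ± 3.2 FPKM (-1.26 ± 0.12), and Hbegf, an EGF receptor ligand, rose by 0.43 ± 0.07. In the IGF system 5 rose and 7 fell of 14, with Igfbp4 at -0.99 ± 0.10 and Igfbp5 at 0.77 ± 0.09. Of 16 Wnt genes 5 rose and 8 fell, Wnt5a going from 0.919 ± 0.179 to 2.32 ± 0.459 FPKM (0.78 ± 0.09).

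Genes for the folding of secreted proteins rose together, by small amounts. Of 31 tested genes of the unfolded protein response and ER folding, 28 were called higher and 0 lower, where 15.3% of all tested genes were higher, with a median of 0.19 and a highest value of 0.51. Hspa5, the ER chaperone BiP, measured 315, 319 and 298 FPKM in si-NC and 415, 395 and 371 FPKM in Ang-II (0.34 ± 0.04, adjusted p = 7.38e-06), and its nucleotide exchange factor Hyou1 went from 35.4 ± 0.78 to 49.1 ± 2.61 FPKM (0.46 ± 0.04). Ppp1r15a, the phosphatase subunit that restarts translation, rose by 0.51 ± 0.05. Sdf2l1 (0.01 ± 0.09, adjusted p = 0.92) and Creld2 (0.09 ± 0.06, adjusted p = 0.293), both sensitive targets of ER stress, were not called. The ER stress element, which is CCAAT and CCACG with 9 bases of any kind between them, was found on either strand in 8 of 27 matched promoters of these genes (29.6%), in 0.168% of promoters of tested genes and in 0.13% of all promoters. It is printed in capitals for Hspa5, for Hsp90b1 (0.20 ± 0.03) and Canx (0.28 ± 0.03), both chaperones of the ER, and for Creld2, which was not called:
Hspa5, chr2:34772020-34772049, plus strand: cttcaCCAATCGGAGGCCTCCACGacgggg
Hsp90b1, chr10:86705632-86705661, minus strand: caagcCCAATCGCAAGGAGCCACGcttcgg
Canx, chr11:50325794-50325823, minus strand: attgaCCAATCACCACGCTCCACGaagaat
Creld2, chr15:88819515-88819544, plus strand: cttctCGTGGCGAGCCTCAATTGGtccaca
The Creld2 element reads CCAAT to CCACG on the other strand.

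Genes of the integrated stress response and of amino acid supply rose in 24 of 40 cases and fell in 3 (median 0.20). Nupr1, a stress-induced chromatin protein, measured 132, 122 and 118 FPKM in si-NC and 251, 248 and 208 FPKM in Ang-II (0.92 ± 0.06, adjusted p = 5.17e-08). Trib3, a pseudokinase target of ATF4 and CHOP, rose from 28.8 ± 3.5 to 46 ± 2.44 FPKM (0.66 ± 0.07, adjusted p = 5.81e-06), Cth, which makes cysteine, from 11.2 ± 0.688 to 19.8 ± 1.45 FPKM (0.78 ± 0.05), and Pycr1, which makes proline, a major residue of collagen, from 9.0 ± 0.27 to 14.6 ± 0.21 FPKM (0.64 ± 0.05). The transcription factors Atf4 (0.23 ± 0.03) and Ddit3, CHOP (0.38 ± 0.07), were also higher, while the serine synthesis gene Phgdh was at 148 ± 2.23 FPKM in si-NC and 146 ± 3.63 FPKM in Ang-II (-0.01 ± 0.03, adjusted p = 0.706) and Psat1 of the same route fell by 0.21 (SE 0.05). The letters of the amino acid response element, TGATGCAA or TGATGAAA on either strand, to which ATF4 dimers bind, were in 11 of 34 matched promoters (32.4%), against 1.1% of those of tested genes and 1.92% of all promoters. They are shown in capitals for 4 members that rose:
Asns, chr6:7693214-7693243, minus strand: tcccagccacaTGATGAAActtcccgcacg
Chac1, chr2:119351038-119351067, plus strand: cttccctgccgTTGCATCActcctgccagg
Nupr1, chr7:126625562-126625591, minus strand: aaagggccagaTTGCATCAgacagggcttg
Slc7a11, chr3:50443661-50443690, minus strand: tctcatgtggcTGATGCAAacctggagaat
Asns, asparagine synthetase, rose by 0.24 ± 0.03, Chac1, which breaks down glutathione, by 0.28 ± 0.05, and Slc7a11, the cystine transporter, by 0.28 ± 0.06. TTGCATCA is TGATGCAA on the other strand.

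Transport from the ER followed the same direction: 18 of 34 secretory pathway genes rose and 1 fell. Creb3l1, a transcription factor for collagen secretion genes, went from 23.6 ± 0.534 to 31.2 ± 3.04 FPKM (0.38 ± 0.06), the coat subunit Sec23a rose by 0.32 ± 0.04, and Mia3, TANGO1, which loads procollagen into vesicles, by 0.25 ± 0.03. Of 36 ribosomal protein genes 31 rose and 0 fell (median 0.14), by at most 0.20, and 21 were called higher with quantile normalization. Their summed FPKM was 109% to 112% of the si-NC mean in Ang-II, against 95.7% to 103% among the si-NC libraries. Of 25 ribosome biogenesis genes 12 rose and none fell, led by the polyamine enzyme Odc1 (0.49 ± 0.05).

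Respiratory chain genes fell by small amounts, beside a fall of heart muscle genes. Of 31 respiratory chain genes 29 were lower and 0 higher (median -0.26), for example Sdhb of complex II, from 160.3 ± 3.29 to 127 ± 3.46 FPKM (-0.34 ± 0.03), and Uqcrc1 of complex III, from 193 ± 3.38 to 153 ± 3.53 FPKM (-0.34 ± 0.03). Cardiomyocyte markers also fell: 18 of 19 were lower and 1 higher (median -0.44). Their summed FPKM was 71.6% to 78.6% of the si-NC mean in Ang-II, replicate 3 being the lowest, against 96.4% to 104% among the si-NC libraries, and the sum of the respiratory chain genes was also lowest there, at 83.2% of the si-NC mean. The troponin Tnni3 measured 489, 531 and 494 FPKM in si-NC and 303, 309 and 283 FPKM in Ang-II (-0.76 ± 0.05, adjusted p = 3.81e-08) and the myosin Myh6 1496, 1673 and 1684 FPKM in si-NC and 1172, 1237 and 1118 FPKM in Ang-II (-0.46 ± 0.06). Among all called genes the largest losses in FPKM were those of Actc1 (-0.56 ± 0.05), Nppa and Myh6. In si-Foxm1 cells without the hormone the sums of these lists went apart. The cardiomyocyte markers stood at 52.5% to 55.9% of the si-NC mean and the respiratory chain genes at 106% to 111%. The part of muscle cells in the fall of respiratory chain genes was not tested.

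**Figure D4:**
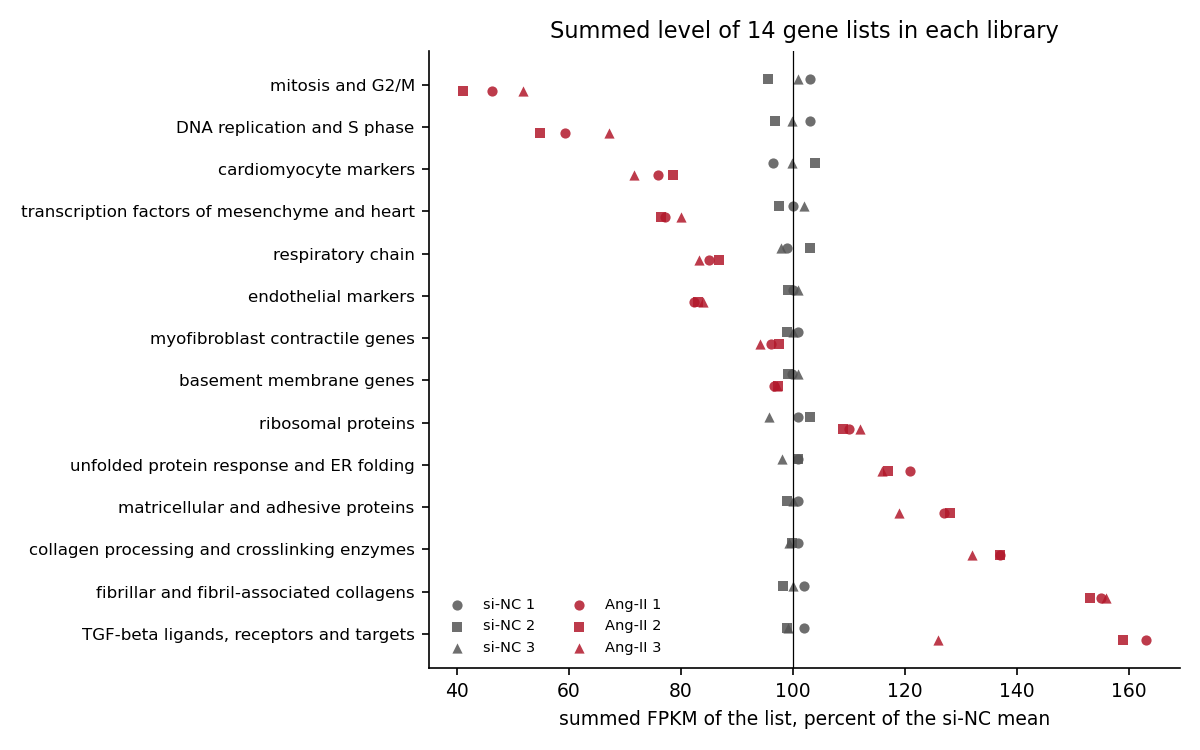
Summed FPKM of 14 gene lists in each library, as a percent of the si-NC mean (x axis), si-NC in grey and Ang-II in red with a symbol for each replicate. The mitosis list stands at 41.2% to 51.9% in Ang-II and the cardiomyocyte markers at 71.6% to 78.6%, while fibrillar collagens stand at 153% to 156% and the TGF-beta list at 126% in replicate 3 and 159% and 163% in the others. A sum follows the most abundant members of a list, and the median log2 fold change of the TGF-beta list was 0.06.

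In glycolysis and the hypoxia response 13 of 26 genes fell and 3 rose (11 and 5 with median-of-ratios scaling). Epas1, the HIF-2 alpha factor, had 33.7, 33.6 and 36.9 FPKM in si-NC and 14.7, 14.5 and 17.3 FPKM in Ang-II (-1.12 ± 0.06, adjusted p = 2.22e-08). Among lipid genes 9 of 23 fell and 3 rose (8 and 6 with either scaling): the heart fatty acid binding protein Fabp3 went from 378 ± 11.2 to 215 ± 3.69 FPKM (-0.81 ± 0.04) and the cholesterol exporter Abca1 from 4.19 ± 0.452 to 2.29 ± 0.237 FPKM (-0.65 ± 0.12). Cholesterol synthesis genes gave 6 higher and 5 lower of 25 (8 and 2 with median-of-ratios scaling, 9 and 3 with quantile normalization). In the oxidant list 6 rose and 4 fell of 30, and 9 fell without Ang-II replicate 3. Nox4, the hydrogen peroxide source that TGF-beta induces in fibroblasts, measured 2.44, 2.12 and 2.4 FPKM in si-NC and 7.04, 6.67 and 5.03 FPKM in Ang-II (1.12 ± 0.09, adjusted p = 5.91e-07), Hmox1, heme oxygenase, rose by 0.43 ± 0.05, and the mitochondrial dismutase Sod2 fell by 0.35 (SE 0.04). p53 targets (5 higher and 6 lower of 27, 8 and 5 with median-of-ratios scaling) and heat shock genes (6 and 7 of 22, 8 and 6 with median-of-ratios scaling) were split. Gadd45b, a growth arrest gene, rose by 0.64 ± 0.09.

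Several transcription factors of heart mesenchyme were lower. Of 38 factors of mesenchyme and heart 18 fell and 6 rose (13 and 8 with quantile normalization). Tcf21, the epicardial and resident fibroblast factor, measured 136, 125 and 138 FPKM in si-NC and 63.9, 61.8 and 82.3 FPKM in Ang-II (-0.94 ± 0.08, adjusted p = 1.06e-06), and Tbx20 fell by 0.78 (SE 0.04). Meox1, which marks activated fibroblasts in stressed hearts, rose from 2.14 ± 0.28 to 4.9 ± 1.53 FPKM (0.88 ± 0.15, adjusted p = 0.000283), and Scx, scleraxis, an activator of collagen genes, from 7.39 ± 0.429 to 15.3 ± 1.44 FPKM (0.95 ± 0.06, adjusted p = 7.95e-08). Gata4 went from 64.5 ± 2.59 to 49.5 ± 1.05 FPKM (-0.37 ± 0.03). Gata4 and Tbx20 are also expressed by heart muscle cells, whose markers fell in the same libraries to a sum of 71.6% to 78.6% of the si-NC mean, and the part of muscle cells in these changes was not tested.

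Marker genes of cell types moved beside these groups. Of 13 fibroblast markers 8 fell (61.5%) and 3 rose (23.1%). Pi16 and Fap were below the level for the test. Pi16 had 0.0929, 0.181 and 0.136 FPKM in si-NC and 0.999, 0.942 and 0.874 FPKM in Ang-II, higher without overlap, while the values of Fap overlapped. Thy1, CD90, a surface protein of fibroblasts, measured 128, 112 and 114 FPKM in si-NC and 29.3, 25.6 and 31 FPKM in Ang-II (-2.01 ± 0.08, adjusted p = 8.71e-10). Its treated libraries lay close together, replicate 3 included, and S100a4 went from 681 ± 35.1 to 480.3 ± 41.6 FPKM (-0.51 ± 0.06). Of 10 endothelial markers 8 were lower and 0 higher, their sum being 199 to 201 FPKM in si-NC and 165 to 168 FPKM in Ang-II. Vwf and Cldn5, which define endothelium, were below 1 FPKM in all 6 libraries and not tested. Vwf did not go the way of the sum: it had 0.515, 0.654 and 0.444 FPKM in si-NC and 0.954, 0.964 and 0.875 FPKM in Ang-II, without overlap. Of 11 macrophage markers 4 rose and 1 fell, with the lysozyme gene Lyz2 at 203 ± 3.63 FPKM in si-NC and 265 ± 13.9 FPKM in Ang-II (0.38 ± 0.07) and the leukocyte gene Ptprc below 1 FPKM, and the sum was 270.5 to 278 FPKM in si-NC and 327 to 358 FPKM in Ang-II. Neither sum overlapped between the groups, where 33.8% of all tested genes lay wholly lower and 19.2% wholly higher. Lyz2 alone made up most of the macrophage sum and most of its rise, and 6 of the 11 macrophage markers were not called. The part of endothelial cells or macrophages in the changes above was not tested. Of 10 epicardial and mesothelial markers 5 fell and 1 rose, Upk3b going from 15.5 ± 1.03 to 7.27 ± 0.728 FPKM (-1.002 ± 0.09) and the keratin Krt18 from 23.4 ± 0.396 to 40.8 ± 3.04 FPKM (0.77 ± 0.05). Smooth muscle and pericyte markers gave 3 higher and 4 lower of 8: the proteoglycan Cspg4, NG2, rose from 27.5 ± 0.544 to 55.2 ± 6.69 FPKM (0.97 ± 0.07) and Notch3 fell by 0.72 (SE 0.10).

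Several of the strongest changes lay outside these groups. Tnfrsf11b, osteoprotegerin, a decoy receptor for RANKL, measured 4.63, 5.37 and 4.34 FPKM in si-NC and 33.8, 37.6 and 21.1 FPKM in Ang-II (2.42 ± 0.16, adjusted p = 6.27e-08). Serpinb1a, an inhibitor of neutrophil proteases, had 5.64, 5.7 and 6.38 FPKM in si-NC and 39.4, 33.5 and 35.1 FPKM in Ang-II (2.42 ± 0.08, adjusted p = 1.47e-10), the chemokine Ccl17 1.92, 2.26 and 2.24 FPKM in si-NC and 13.9, 13.7 and 9.91 FPKM in Ang-II (2.09 ± 0.10, adjusted p = 5.81e-09) and St14, the epithelial protease matriptase, 3.44, 3.25 and 3.86 FPKM in si-NC and 17.5, 15.6 and 14.5 FPKM in Ang-II (1.90 ± 0.07, adjusted p = 3.89e-10). For all 4 genes the lowest treated library was several times as high as the highest control. The cornified envelope gene Sprr2a3 (1.97 ± 0.20), stratifin, Sfn (1.58 ± 0.23), and the annexin Anxa8 (1.501 ± 0.11) also rose. Sprr2a3, Serpinb1a and the ribosomal protein genes belong to families with close copies, among which the counting may have split reads, so their values are less certain. At the other end, Ecrg4, a secreted peptide precursor linked to quiescence, measured 17.5, 17.5 and 17.6 FPKM in si-NC and 1.91, 2.1 and 4.52 FPKM in Ang-II (-2.33 ± 0.18, adjusted p = 3.4e-07), and Ch25h, cholesterol 25-hydroxylase, 23, 21 and 21.5 FPKM in si-NC and 4.73, 4.9 and 9.19 FPKM in Ang-II (-1.70 ± 0.15, adjusted p = 1.14e-06). Tmem215 (-1.62 ± 0.12), Cd34, a surface marker of progenitors and fibroblasts (-1.46 ± 0.10), Hsd11b1, which activates glucocorticoids (-1.43 ± 0.10), and the PACAP receptor Adcyap1r1 (-1.40 ± 0.07) fell as well. Without Ang-II replicate 3 the change of Ecrg4 was -2.63 and that of Ch25h -1.97.

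The hormone effect was measured again in cells with siRNA against Foxm1, by libraries whose means the main comparison did not use. Both comparisons shared the same estimate of the spread of each gene, so their calls were not independent. In those cells 5265 of 11100 genes were called (47.4%), 1433 higher (12.9%) and 3832 lower (34.5%). Of the 1700 genes called higher in Ang-II against si-NC, 1117 (65.7%) were also called higher there and 15 lower, and of the 3253 called lower, 2703 (83.1%) were also called lower and 2 higher. Seen from the other side, the shared genes were 77.9% of the higher and 70.5% of the lower calls in si-Foxm1 cells. All 155 genes called at least 2-fold in the main comparison were called the same way. Across the 11100 genes the log2 fold changes of the 2 comparisons correlated at a Pearson r of 0.89; genes are not independent replicates, and this value is a description. Ltbp2, for example, changed by 2.55 ± 0.08 without and 2.73 ± 0.08 with the siRNA, Thy1 by -2.01 ± 0.08 and -1.90 ± 0.08, Col1a1 by 0.88 ± 0.03 and 0.94 ± 0.03, and Foxm1 itself by -0.99 ± 0.10 and -0.69 ± 0.10.

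The difference between the hormone effects, tested in the same fit, was called for 101 genes (0.91% of those tested), 42 higher (0.378%) and 59 lower (0.532%) with the siRNA, and for 1589 at an unadjusted p under 0.05. The count depends on single libraries, ranging from 38 without si-Foxm1+Ang-II replicate 2 to 201 without Ang-II replicate 3. If the Ang-II cells had no control siRNA, transfection enters this difference too and cannot be told apart. Of the 101 genes, 67 moved the same way in both settings, 42 of them by less with the siRNA, and 34 had opposite signs. Tgfbi rose by 1.58 ± 0.07 without the siRNA and by 0.56 ± 0.07 with it, a difference of -1.02 ± 0.10 (adjusted p = 0.000585). St14 went from 1.90 ± 0.07 to 1.14 ± 0.07 and Fxyd6, a subunit regulating the sodium pump, from 1.67 ± 0.05 to 1.02 ± 0.05. Serpina3n, a serine protease inhibitor of inflammation, rose without and fell with the siRNA (0.56 ± 0.08 and -0.57 ± 0.08, difference -1.13 ± 0.11, adjusted p = 0.000585). The crosslinking enzyme Lox and the collagen Col11a1 rose more with the siRNA, by 1.80 ± 0.06 and 2.01 ± 0.04, differences of 0.51 ± 0.08 (adjusted p = 0.00979) and 0.33 ± 0.06 (adjusted p = 0.0143). Among the mitosis genes the fall was smaller with the siRNA in 5 calls, such as Ube2c (-1.29 ± 0.08 and -0.67 ± 0.08, adjusted p = 0.0214).

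**Figure D5:**
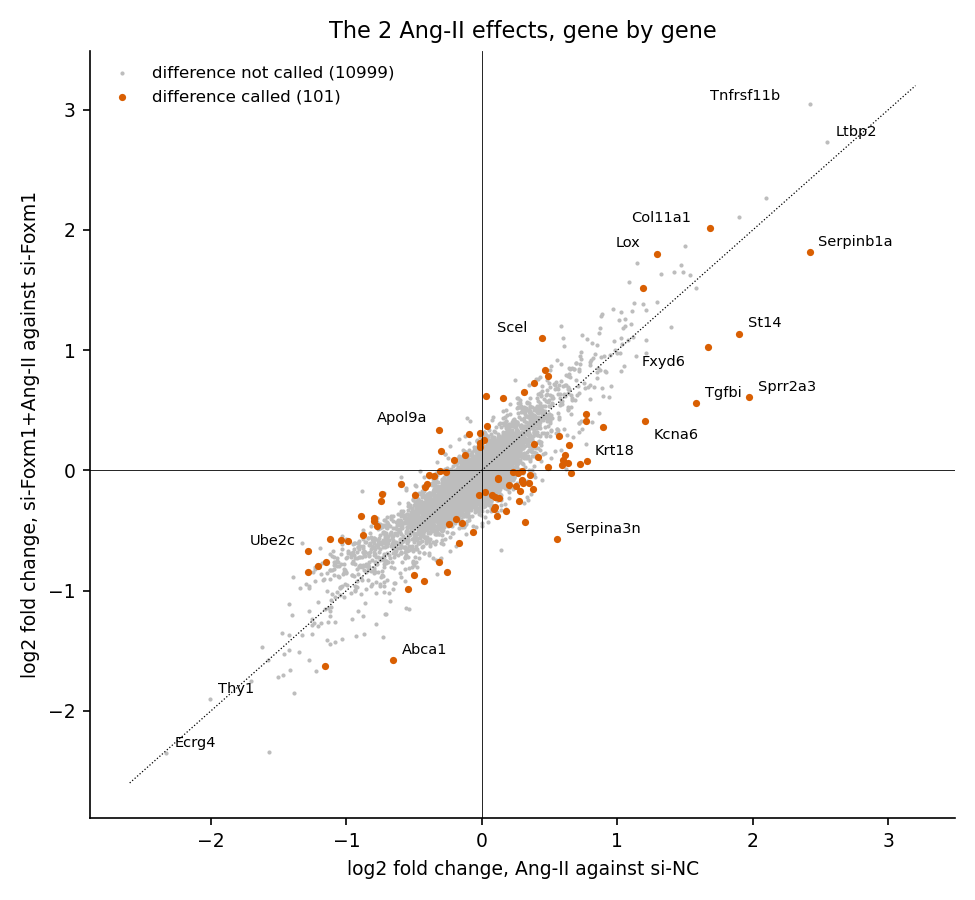
Log2 fold change of each of the 11100 tested genes with angiotensin II in cells without Foxm1 siRNA (x axis) and with it (y axis), with the 101 genes whose difference was called in orange. Most genes follow the dotted line of equal change, Tgfbi, Sprr2a3, St14 and Serpinb1a lie below it and Lox and Col11a1 above it.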

How the data were processed

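Gene levels were measured by stranded mRNA sequencing in 18 libraries, 3 in each of 6 groups. The authors deposited FPKM values. Per the submitters' processing notes, fastp, HISAT2 and HTSeq were used with the mm39 build, with no versions or settings given in the sources used here. In the deposited FPKM table the values of all 17960 genes above 0 came out as whole numbers of counted fragments within 0.02, so depth was recovered from them (18167808 to 19012353 fragments in the 6 libraries). At this depth a count of 0 allows up to 3 fragments, or 0.158 to 0.165 FPKM for a gene of 1 kb, counting error only. All columns of the table matched a labelled sample.

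From these values log2(FPKM + 1) was fitted with limma 3.58.1 in R 4.3.3, with an intensity trend, on the 12 libraries of the si-NC, Ang-II, si-Foxm1 and si-Foxm1+Ang-II groups. Tests used the 11100 genes with a mean of at least 1 FPKM, Benjamini-Hochberg adjustment over all of them and an adjusted p under 0.05. The same fit gave the hormone effect in si-Foxm1 cells and the difference of the effects. The code was tested on simulated data. The comparison, the 41 pathway lists, the 9 cell type lists and the tests were chosen with earlier results of these data known. The text names Foxm1, the 15 highest and 15 lowest called genes whose groups do not overlap, the 10 largest gains and losses in FPKM, fixed leading members of each list with up to 4 further members of smallest p, and the 5 highest and lowest differences of effect; other genes are said to be added. A few genes that this rule names are not reported here. Alternatives were a pseudocount of 0.1, a lower or no filter, quantile and median-of-ratios scaling, 6 or 18 libraries, a replicate block, voom on recovered counts and leaving out each library. Promoter windows came from RefSeq (GRCm38.p6); they were not joined to coordinates of the deposited data.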

Additional observations from a re-analysis of the deposited data

Results flagged for a closer look

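The hormone effect differed between cells with and without Foxm1 siRNA in 101 genes by the limma test of the difference itself, adjusted over 11100 genes; the count was 38 to 201 when single libraries were left out. The named genes among them are listed here with that difference, as the effect with the siRNA minus the effect without it on the log2(FPKM + 1) scale. For matrix genes it was -1.02 for the adhesion protein Tgfbi, 0.33 for Col11a1, 0.51 for Lox, 0.30 for Plod2, 0.34 for Ccn1, 0.33 for Cthrc1 and -0.36 for Vcan. For mitosis genes, which fell less with the siRNA, it was 0.44 for Ccnb1, 0.42 for Cdca8, 0.39 for Racgap1, 0.40 for Aurka, 0.61 for Ube2c and, outside the mitosis list, 0.55 for Shcbp1. In the si-Foxm1 cells these genes started from their own baseline: Ube2c had 35.5 ± 2.88 FPKM there without the hormone and 21.8 ± 0.863 FPKM with it. Foxm1 itself had 5.97 ± 0.793 and 3.31 ± 0.262 FPKM.

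Genes of signalling differed by -0.45 (Ace), 0.37 (Gdf6), -0.49 (the Wnt antagonist Dkk3), 0.33 (Amotl2), -0.48 (Gadd45a) and 0.31 (the receptor Kit). Lipid genes differed by -0.93 (Abca1), -0.52 (Apoe) and -0.21 (the lipase Lpl). Tagln had a difference of 0.39, Clu of -0.30 and the serine synthesis gene Phgdh of 0.21. Of genes best known from epithelia, St14 had -0.76, Sprr2a3 -1.36, Krt18 -0.69 and Scel 0.66. The remaining differences were -0.61 for Serpinb1a, -1.13 for Serpina3n, -0.65 for Fxyd6, -0.16 for the lysosomal protease Ctsd, 0.59 for Trabd2b, 0.65 for Apol9a and -0.79 for the potassium channel Kcna6.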

How the results depend on the processing

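Of 410 named genes 368 were called, and 348 of these were called the same way under every alternative run; 19 lost the call under at least 1, and 3 changed sign. These were Nppa, Bgn and Eef1a1 with quantile normalization, none of them then called. They changed by 0.00, -0.019 and 0.00, against -0.36, 0.13 and 0.14 as reported, and 2662 genes were called higher. The counts of called genes at least 2-fold higher and lower were 67 and 253 with a pseudocount of 0.1 and 72 and 273 with voom on recovered counts, against 44 and 111, since the pseudocount of 1 shrinks genes of low FPKM. Voom called 4996 genes. Leaving out each library gave 4180 to 4929 genes called in either direction, 1404 to 1630 higher, 2760 to 3299 lower, 34 to 55 at least 2-fold higher and 80 to 150 at least 2-fold lower, 4605 to 5446 called in si-Foxm1 cells, and 38 to 201 differences of effect. The 101 differences became 201 without Ang-II replicate 3, 45, 61 and 58 without si-NC replicates 1, 2 and 3, 40 and 63 without si-Foxm1 replicates 1 and 2, and 38 and 56 without si-Foxm1+Ang-II replicates 2 and 3. Bgn is an example of a called named gene whose change moved by over 1.5 times when a library was left out (0.08 without si-NC replicate 2, against 0.13). Lum, Smad7 and Rcan1, not called with all libraries, were called without Ang-II replicate 3 (-0.82, 0.23 and 0.16), as were Mthfd2, Scd1 and Hk2. With the replicate number as a block 4992 genes were called, 1703 higher and 3289 lower, and 136 differences of effect. Deviations of same-numbered si-NC and Ang-II libraries correlated at 0.05, 0.16 and -0.01, so the replicate block rests on a shared number only. Depth limits genes such as the angiotensin receptors.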

Other observations

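Genes outside the lists that gained or lost many FPKM included housekeeping and organelle genes. The lysosomal protease cathepsin D, Ctsd, measured 997, 984 and 970.2 FPKM in si-NC and 1284, 1282 and 1281 FPKM in Ang-II (0.38 ± 0.03, adjusted p = 6.81e-08), and the translation elongation factor Eef1a1 4401, 4461 and 4267 FPKM in si-NC and 4811, 4769.6 and 4908 FPKM in Ang-II (0.14 ± 0.03, adjusted p = 0.000783, not called with quantile normalization). Both were higher in every treated library than in any control, as were 19.2% of all tested genes. The mitochondrial ADP/ATP carrier Slc25a4, abundant in muscle, went from 882 ± 15.4 to 666 ± 17.5 FPKM (-0.41 ± 0.03) and the calcium pump of the sarcoplasmic reticulum Atp2a2 from 971 ± 37.6 to 735 ± 15.7 FPKM (-0.40 ± 0.04). The cadherin Cdh10 rose from 0.578 ± 0.152 to 3.45 ± 1.08 FPKM (1.47 ± 0.14, adjusted p = 1.87e-06). Sciellin, Scel, a cornified envelope gene, rose from 18.1 ± 0.816 to 25.1 ± 2.53 FPKM without Foxm1 siRNA and from 8.76 ± 0.387 to 19.99 ± 1.96 FPKM with it.

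Every si-Foxm1 library lay above every si-NC library in the type 1a receptor: Agtr1a had 2.40, 2.02 and 1.97 FPKM in the si-Foxm1 libraries (90 to 109 fragments) and 1.31, 1.48 and 1.16 FPKM in the si-Foxm1+Ang-II libraries (51 to 67 fragments), against 0.577 to 0.801 FPKM in si-NC. These values were looked at after the main results and were not tested. How many of all genes separate in this way between si-Foxm1 and si-NC was not counted. The lysozyme gene Lyz2, a macrophage marker, had 109.7 ± 13.7 FPKM in si-Foxm1 cells and 107 ± 9.44 FPKM in si-Foxm1+Ang-II cells, against 203 ± 3.63 FPKM in si-NC and 265 ± 13.9 FPKM in Ang-II.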
